A study of Gallus gallus with 10 samples.

Results

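Anterior and posterior placode progenitors (aPPs and pPPs) of chick embryos were compared directly after dissection, on 3 Affymetrix chicken arrays of each. These 6 arrays were taken from a series of 10 by their titles, which name the anterior or posterior preplacodal region (PPR) at HH6 and a set number from 1 to 3, and each aPP array was paired with the pPP array of the same set. The other 4 arrays carry aPPs and pPPs held in collagen for 5 hr and serve here only as the nearest comparison. For 1 of these 4, cultured pPP replicate 2, the region is in doubt, since its signals stand under a column named as cultured anterior tissue in the authors' annotated table. No transgene, mutation or agent is stated for any group, and the tissue was cut out by hand with insect pins. The sample labels give a stage range of HH5-7, while the titles give HH6. The labels do not say how many embryos went into a sample or whether the sets came from separate dissections. The p-values of the paired comparison thus reflect only how the aPP to pPP difference varied between these 3 sets. Each variance was also drawn toward that of other probe sets of like intensity. In such bulk samples fewer cells of a type and less RNA per cell cannot be told apart.

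The placode progenitors lie in a band of ectoderm around the anterior neural plate. Anterior cells contribute to the lens and the olfactory epithelium, and posterior cells to the inner ear and the epibranchial ganglia. In vertebrate embryos this ectoderm lies between neural plate and future epidermis, BMP activity is known to be higher toward the epidermis, and FGF signals from neighbouring tissue help to induce the band. Head mesoderm and, in front, the anterior mesendoderm lie underneath it.

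Genes of the nonneural ectoderm and BMP targets, such as KRT7, GATA3, BAMBI and ID1, were among those higher in aPPs, together with the neuropeptide genes SST1 and PNOC. Not all genes of these kinds rose. DLX5, TFAP2A, ID2 and MSX1 were not called, TFAP2B was higher in pPPs, and GATA2 was not tested. The paper locates somatostatin in the anterior mesendoderm below the aPPs and nociceptin in the ectoderm. Genes higher in pPPs included the neural plate and border genes SP8, ZIC1, ZIC2 and PAX7, the BMP and activin antagonist FST, and the FGF targets DUSP4, DUSP5 and DUSP6. Markers that define the neural plate did not all go this way. ZEB2 was higher in pPPs, but CDH2 was higher in aPPs, SOX3 was not called and SOX2 was not tested. The mean log2 differences ran from 4.08 for FIBIN to -3.60 for FST among named genes. PAX6 was higher in aPPs and GBX2 in pPPs, by smaller margins, while OTX2, SIX3 and HESX1 were not called.

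The deposited signals of the 6 arrays had medians between 7.7 and 21.3, so they were quantile normalized over the 10 arrays, 16 was added and log2 taken. All signals below are normalized signals without the added 16, and all log2 differences are aPP minus pPP on the log2(signal + 16) scale, which understates the change of dim genes. MAS5 calls a probe set Present where its signal exceeds its mismatch background, and 21591 of 38439 probe sets with 2 or more such calls among the 8 arrays whose calls could be used entered the test. Between 44.7% and 50.2% of probe sets were Present per uncultured array. With the arrays of a set treated as a pair in limma, 407 probe sets were called higher in aPPs (1.89% of those tested) and 240 lower (1.11%), together 647 (3.00%), at a Benjamini-Hochberg adjusted p under 0.05. An unadjusted p under 0.05 was found for 2858. Without the pairing the counts were 174 higher and 103 lower. The same 9728 named genes stand behind all counts of gene lists below, each gene with its brightest tested probe set. Of these genes 2.42% were called higher and 1.34% lower, and their median log2 difference was -0.01. The lists were drawn up by function, but with earlier results of these data known. Their counts are set beside these percentages as a description and are no independent support.

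The 407 probe sets higher in aPPs stand for 256 named genes and the 240 lower ones for 146. The log2 difference reached at least 1 in 182 of the former and 87 of the latter, and at least 2 in 24 and 13. All 647 moved in the same direction in all 3 sets, and the aPP and pPP signals did not overlap for 381 of the higher and 217 of the lower probe sets. Among all 21591 tested, 7505 moved in the same direction in 3 sets and 2996 did not overlap. The calls were made on these same differences, so this agreement only describes the called probe sets. A total of 19 higher probe sets had no Present call in pPPs, and 19 lower ones had none in aPPs.

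**Figure D1:**
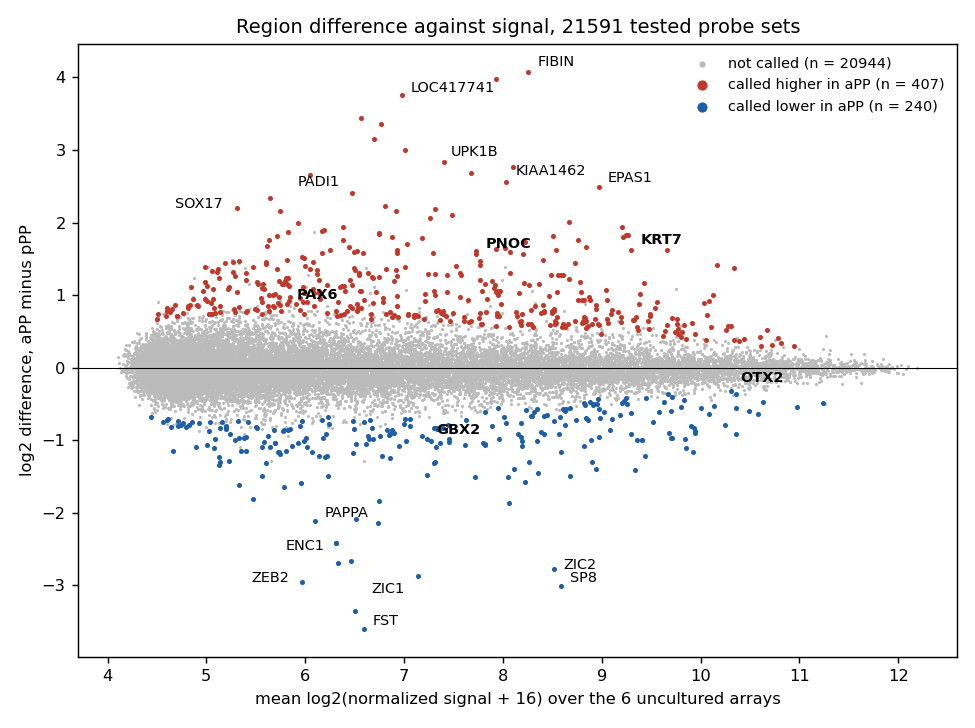
Log2 difference between aPPs and pPPs (vertical axis) against the mean log2(normalized signal + 16) of the 6 uncultured arrays (horizontal axis), with 1 point for each of 21591 tested probe sets. Red points are the 407 called higher and blue points the 240 called lower in aPPs; FIBIN (4.08) and FST (-3.60) lie at the ends among named genes, and OTX2 (-0.28) is not called.

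The gene with the largest increase was FIBIN, which encodes a secreted protein named for its role in fin bud formation in zebrafish. In sets 1, 2 and 3 its signal was 883, 1413 and 1539 for aPPs, against 76.1, 25.2 and 93.1 for pPPs. The lowest aPP array thus lay far above the highest pPP array, and the log2 difference was 4.08 ± 0.26 (SE; adjusted p = 2.76e-05). LOC417741, a gene without a functional name in the annotation, had 256, 328 and 1045 in aPPs and 28.2, 11.3 and 17.4 in pPPs. All of its aPP values exceeded all of its pPP values, with a log2 difference of 3.76 ± 0.33 (SE; adjusted p = 0.000195). UPK1B, a tetraspanin of urothelial membranes, followed at 2.77, with 449 to 954 in aPPs and 31.8 to 145 in pPPs (adjusted p = 0.00111). KIAA1462, a protein of endothelial cell junctions in mammals, had a log2 difference of 2.56, with 484 to 920 in aPPs and 47.9 to 147 in pPPs (adjusted p = 4.96e-05). EPAS1, a hypoxia-inducible transcription factor, had 939, 1525 and 1120 in aPPs and 249, 97.6 and 298 in pPPs. Its groups were well apart (log2 difference 2.49, adjusted p = 0.00101), although its other tested probe set, which was dim, had 0.26 (adjusted p = 0.548). PADI1, an enzyme that converts arginine to citrulline and is known from epidermis, had a log2 difference of 2.40 (adjusted p = 0.000333).

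These genes had their largest difference in set 2 or 3, whereas a further group of the 15 largest increases had its smallest in set 2. SOX17, an HMG-box transcription factor that defines endoderm, had 98.6, 11.9 and 173 in aPPs against 6.35, 1.14 and 0.48 in pPPs. It had no Present call in pPPs and was at least 4.21-fold higher in aPPs (adjusted p = 0.0121, 0.0602 without the pairing), and its other probe set, also without a Present call in pPPs, had 0.38 and was not called. LOC395991, annotated on the array as crescent, a secreted Frizzled-related protein, had 389, 118 and 709 in aPPs and 83.1, 46.0 and 51.7 in pPPs. FGB, the fibrinogen beta chain, had 73.7, 21.1 and 424 in aPPs against 12.7, 4.02 and 12.3 in pPPs. ISL1, a LIM homeodomain factor, had 208, 49.0 and 280 in aPPs against 45.8, 21.3 and 17.6 in pPPs. In all 4 genes aPP set 3 was the highest array and aPP set 2 the lowest of the aPPs. The log2 differences of LOC395991, FGB and ISL1 were 2.19, 2.16 and 1.93 (adjusted p = 0.00412, 0.0226 and 0.00989), and without the pairing FGB and ISL1 did not pass (adjusted p = 0.16 and 0.0614).

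The other genes among the 15 largest increases were CSRP2 (log2 difference 2.11), a LIM-domain protein of the cytoskeleton, SST1 (2.07), the somatostatin propeptide, and CFI (2.00), complement factor I. WISP1 (2.00), a secreted matricellular protein, and FOXC2 (1.93), a forkhead factor known from head and paraxial mesoderm, completed them. Their adjusted p-values lay between 4.04e-05 and 0.00532. FOXC2 was bright, with 1196, 1037 and 1188 in aPPs and 435, 160 and 333 in pPPs, and its groups did not overlap.

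**Figure D2:**
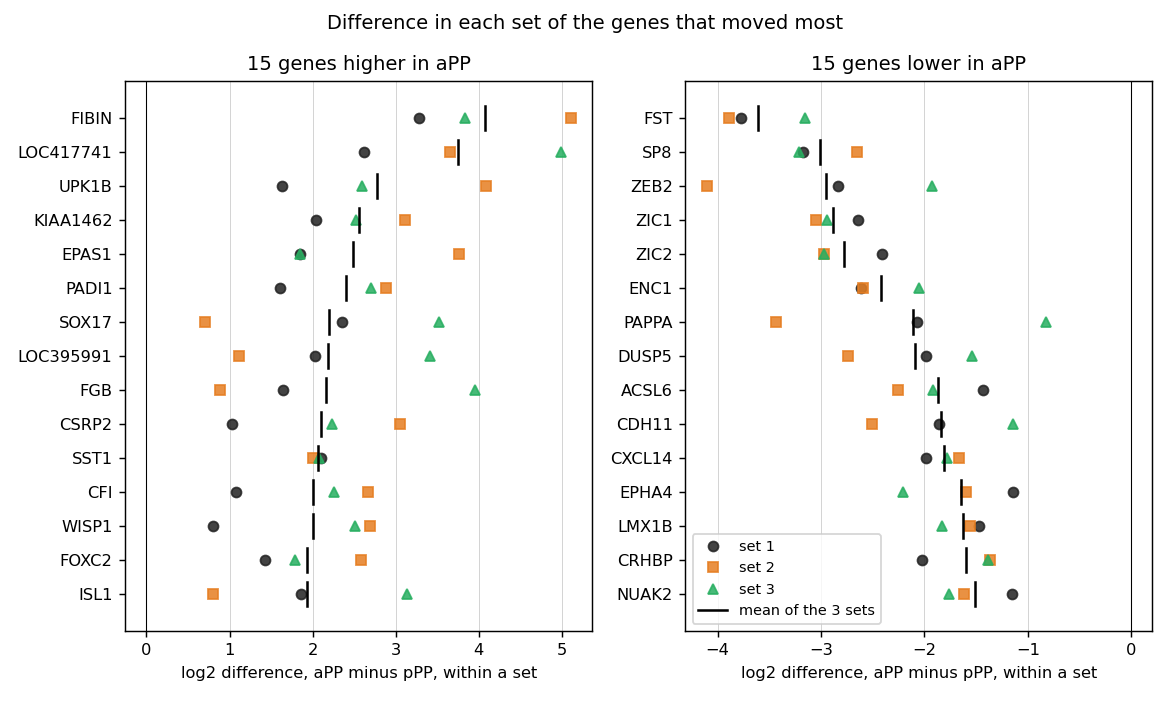
Log2 difference between aPP and pPP arrays of the same set (horizontal axis) for the 15 named genes with the largest increase (left) and the largest decrease (right). Points are sets 1, 2 and 3 and black bars the mean of the 3 sets; SOX17, LOC395991, FGB and ISL1 have their smallest difference in set 2, while FIBIN, UPK1B and EPAS1 have their largest there.

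Lower in aPPs, and thus higher in pPPs, were transcription factor genes of the dorsal neural plate and neural plate border. SP8, a zinc finger factor, was close to constant within each region, with 123, 123 and 114 in aPPs against 1236, 858 and 1184 in pPPs. The regions were far apart (log2 difference -3.01 ± 0.14, SE; adjusted p = 4.95e-06). ZIC2 had 172, 130 and 83.6 in aPPs and 977, 1126 and 764 in pPPs, and ZIC1, a member of the same zinc finger family, had 65.3, 36.9 and 17.1 against 493, 420 and 239. Both were lower on every aPP array (log2 differences -2.78 and -2.88, adjusted p = 4.95e-06 and 6.07e-06), and the other tested probe set of ZIC1 had -2.69. A further ZIC2 probe set, Present on no aPP and 2 pPP arrays, had 0.08 and was not called (adjusted p = 0.91). ZEB2, a zinc finger repressor of E-cadherin that is known from neural plate and neural crest, had no Present call in aPPs (2.55, 5.74 and 11.95) and 116, 358 and 90.1 in pPPs. It was at least 7.62-fold lower in aPPs (adjusted p = 0.000614), while its other 2 tested probe sets, both dimmer, were not called (0.10 and -0.62, adjusted p = 0.865 and 0.125).

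FST, the secreted activin and BMP antagonist follistatin, had the largest decrease of all named genes. It had 13.7, 13.4 and 8.15 on the aPP arrays against 391, 419 and 199 on the pPP arrays, without overlap (log2 difference -3.60 ± 0.18, SE; adjusted p = 4.95e-06). The other tested FST probe set, with no Present call in aPPs, had -0.53 (adjusted p = 0.194). ENC1, an actin-binding kelch protein, had 14.3, 19.1 and 22.4 in aPPs and 169, 195 and 143 in pPPs (log2 difference -2.42, adjusted p = 6.22e-05). DUSP5, a nuclear phosphatase of ERK, had no Present call in aPPs, with 27.1, 25.6 and 32.8 there against 155, 262 and 126 in pPPs (log2 difference -2.09, adjusted p = 0.000516). The rest of the 15 largest decreases ranged from -2.11 to -1.51. They were PAPPA, a protease of IGF-binding proteins, ACSL6, an acyl-CoA synthetase, CDH11, a mesenchymal cadherin, and CXCL14, a chemokine, followed by EPHA4, an ephrin receptor, LMX1B, a LIM homeodomain factor, CRHBP, the corticotropin-releasing hormone binding protein, and NUAK2, a kinase related to AMPK. Of these 8 only CRHBP did not pass without the pairing (adjusted p = 0.077).

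Genes that mark anterior or posterior placode territory were compared with the labels. PAX6, the paired box factor of lens and olfactory precursors, had 103, 44.1 and 46.2 in aPPs against 35.8, 16.4 and 27.3 in pPPs. Every aPP array lay above every pPP array, and the difference of 0.87 ± 0.19 (SE) passed with the pairing (adjusted p = 0.0306) but not without it (adjusted p = 0.223). It also did not pass without set 1 (0.71, adjusted p = 0.251) or without set 2 (0.86, adjusted p = 0.0673). NKX2-1, a homeobox gene of ventral forebrain and foregut endoderm, had 109, 29.0 and 201 in aPPs and 26.2, 22.0 and 17.0 in pPPs, with the same order of sets as SOX17 (log2 difference 1.51, adjusted p = 0.045, 0.137 without the pairing). These were the 2 genes called among 12 tested of the anterior list, whose median difference was -0.19. The anterior homeobox genes OTX2, SIX3 and HESX1 were not called. OTX2 had 1297, 1235 and 915 in aPPs and 1258, 1452 and 1443 in pPPs, a difference of -0.28 ± 0.11 (SE; adjusted p = 0.309). SIX3 had 233, 101 and 119 in aPPs and 216, 195 and 152 in pPPs (-0.35 ± 0.18, SE; adjusted p = 0.459). HESX1 had 476, 367 and 368 in aPPs and 405, 512 and 422 in pPPs (-0.14 ± 0.14, SE; adjusted p = 0.751). For all 3 genes the signals of the regions overlapped.

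GBX2, a homeobox gene of the posterior placode territory, had 88.2, 79.7 and 105 in aPPs against 239, 161 and 194 in pPPs. It was lower in aPPs without overlap, as the label would have it (log2 difference -0.99 ± 0.16, SE; adjusted p = 0.00618, 0.081 without set 1). Of 11 posterior placode genes tested, IRX2 (-1.01, adjusted p = 0.00442) and LMX1B (-1.62, adjusted p = 0.000555) were lower as well. IRX1, a homeobox gene of the same family as IRX2, was higher in aPPs in each set (589, 319 and 396 against 399, 200 and 258; log2 difference 0.59, adjusted p = 0.0195). The IRX1 signals of the regions overlapped, and the call was lost without the pairing (adjusted p = 0.485). PAX2, an otic and epibranchial gene, had no Present call on any of the 6 arrays. Among genes shared by all placode progenitors, EYA2, a transcriptional coactivator, was the only 1 of 5 called. It had 466, 253 and 230 in aPPs and 200, 92.7 and 176 in pPPs (0.94, adjusted p = 0.0189, 0.199 without the pairing). EYA1 was dim, and DACH1 had a difference of -0.21 (adjusted p = 0.329).

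Of 26 genes of the nonneural ectoderm, 9 (34.6%) rose in aPPs and 1 fell, with a median difference of 0.48. KRT7, a keratin of simple epithelia, had 989, 1022 and 1293 in aPPs and 456, 196 and 446 in pPPs, a clear separation (log2 difference 1.63, adjusted p = 0.000676). GATA3, a zinc finger factor of nonneural ectoderm, had 286, 153 and 162 in aPPs and 113, 30.9 and 68.4 in pPPs (1.39, adjusted p = 0.0017, 0.0708 without the pairing). MSX2, a homeobox factor, had no Present call in pPPs and was at least 2.11-fold higher in aPPs (adjusted p = 0.0056). VGLL1, a cofactor of TEAD factors, had a difference of 1.87 (adjusted p = 0.0128), KRT14, a basal keratin, 1.15 (adjusted p = 0.0179), and HAS2, a hyaluronan synthase, 1.14 (adjusted p = 0.0258, 0.135 without the pairing). Along with EPAS1, GRHL3 (1.06), a factor of epidermal differentiation, and KRT24 (0.43) were also among those higher, and neither passed without the pairing (adjusted p = 0.188 and 0.349). DLX5, a homeobox factor of the whole nonneural border, was bright in both regions, with 2752 to 2917 in aPPs and 1622 to 2419 in pPPs, and just missed the threshold (0.44, adjusted p = 0.053). TFAP2A, a factor of all nonneural ectoderm, had 512 to 667 against 498 to 818 and was not called (-0.15, adjusted p = 0.629). The exception was TFAP2B, a related factor of neural crest and border, which had 6.27, 6.05 and 8.15 in aPPs and 50.3, 25.5 and 40.9 in pPPs (-1.24, adjusted p = 0.00425). Without the pairing 5 of the 26 were higher and 1 lower, and without set 2 the counts were 6 and 1. The summed signal of the list was 14665, 17162 and 17544 in aPPs and 12524, 10247 and 12901 in pPPs, with pPP set 2 the lowest array.

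Genes of the neural plate ran the opposite way. Of 19 tested, 8 were lower in aPPs and 1 was higher, with a median of -0.51. In addition to SP8, ZIC1, ZIC2 and ZEB2 the lower genes were OLFM1 (-0.92), a secreted olfactomedin protein, FRZB (-0.54), a secreted Wnt antagonist, LMO1 (-1.30), a LIM-only cofactor, and NKX6-2 (-1.09), a homeobox factor. LMO1 and NKX6-2 did not pass without the pairing (adjusted p = 0.0674 and 0.0623). CDH2, the cadherin of neural plate and mesoderm, was the higher one (0.64, adjusted p = 0.0365, 0.246 without the pairing). SOX3, a pan-neural factor that the early placodal ectoderm also expresses, was not called, with 288, 333 and 300 in aPPs and 306, 375 and 304 in pPPs (-0.09, adjusted p = 0.833). SOX2 was Present on 1 pPP array only and was not tested. The summed signal of the neural plate list lay between 4717 and 5348 in aPPs and between 7564 and 8928 in pPPs, and the part of included neural plate cells in the other differences was not tested. Of 18 neural crest genes, 3 were lower and none was higher (median -0.10). PAX7, the paired box factor of crest and neural plate border, had no Present call in aPPs (0.65, 0.65 and 1.72) and 19.2, 21.4 and 25.2 in pPPs, so that it was at least 1.94-fold lower (adjusted p = 0.0025). DRAXIN, a secreted Wnt antagonist and guidance factor, had 49.2 to 56.8 in aPPs and 119 to 129 in pPPs (-1.05, adjusted p = 0.00475), and RHOB, a small GTPase, had -0.56 (adjusted p = 0.0154, 0.212 without the pairing). SNAI2, FOXD3 and SOX10, which define migrating crest, had differences of -0.32, 0.01 and 0.02, and none of them was called.

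**Figure D3:**
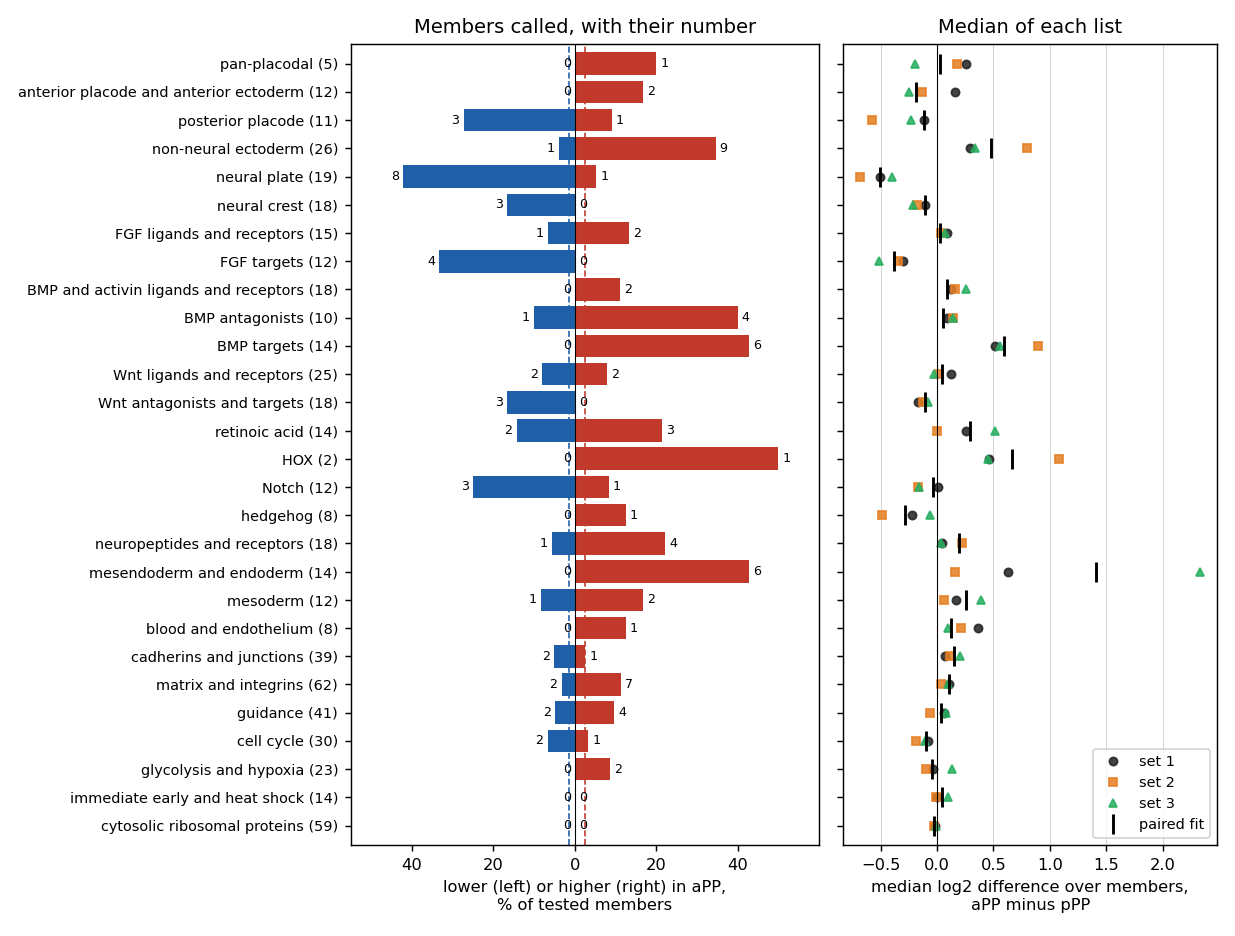
Left, percent of the tested members of each gene list called lower (blue, to the left of 0) or higher (red, to the right) in aPPs, with the number of genes beside each bar, the number tested in brackets and dashed lines at the 1.34% and 2.42% of all named genes. Right, median log2 difference over the members in sets 1, 2 and 3 and in the paired fit; the mesendoderm and endoderm list spreads from 0.16 in set 2 to 2.34 in set 3.

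BMP ligands signal through receptor kinases and SMAD proteins, and their targets include inhibitors of the pathway itself. BMP2, a ligand, had 221, 133 and 353 in aPPs and 89.4, 31.4 and 60.05 in pPPs, without overlap (log2 difference 1.70 ± 0.20, SE; adjusted p = 0.00104). Its second tested probe set had 0.53 (adjusted p = 0.179). BMP7 had a difference of 0.89 that missed the threshold (adjusted p = 0.0514), BMP4 had 0.09 (adjusted p = 0.915), and TGFB2, a ligand of the related TGF-beta branch, had 0.77 (adjusted p = 0.0379, 0.265 without the pairing). BMP2 and TGFB2 were the only genes called among 18 ligands and receptors. Of the 14 targets tested 6 rose and none fell, with a median of 0.60. There were 4 without the pairing and 6 without set 2. BAMBI, a decoy receptor, had 792, 1141 and 1452 in aPPs against 369, 202 and 371 in pPPs. Each set showed the rise, with a log2 difference of 1.80 (adjusted p = 0.000614). SMAD6 and SMAD7, the inhibitory SMADs, had 1.28 and 1.06 (adjusted p = 0.00117 and 0.00873), and SMAD7 did not pass without the pairing (adjusted p = 0.0648). ID1, an inhibitor of bHLH factors, had 663, 737 and 675 in aPPs and 422, 371 and 435 in pPPs (0.74, adjusted p = 0.00469), whereas ID2 had 0.01 and was not called (adjusted p = 0.967). GATA3 and MSX2 complete the 6. MSX1 was not called and had a difference of -0.52 (adjusted p = 0.225). Of 10 antagonists tested, BAMBI, SMAD6, SMAD7 and BMPER (0.90, adjusted p = 0.0246), a secreted BMP-binding protein, were higher, and FST was lower. The lists share members, so their counts are not independent. BAMBI, SMAD6 and SMAD7 are also counted as targets, and GATA3 and MSX2 also as genes of the nonneural ectoderm.

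FGF signals act through receptor tyrosine kinases and ERK, and the phosphatases and ETS factors among their targets are induced by the pathway. Among 12 targets tested 4 fell in aPPs and none rose (median -0.38). DUSP6, a cytoplasmic ERK phosphatase, had 314, 365 and 210 in aPPs against 701, 1092 and 524 in pPPs. The difference was present in each set (-1.31, adjusted p = 0.000211). DUSP4 had 96.2, 92.8 and 89.1 in aPPs and 177, 215 and 223 in pPPs (-1.02, adjusted p = 0.00432), and both of its tested probe sets were lower. DUSP5 was given above, and ETV5, an ETS factor, had -0.40 (adjusted p = 0.041, 0.22 without the pairing). SPRY2, a further feedback inhibitor, had -0.24 and was not called (adjusted p = 0.598). Among 15 ligands and receptors FGFRL1 (1.12), a receptor without a kinase domain, and FGF12 (0.73) were higher and FGF13 (-0.83) was lower, none of which passed without the pairing (adjusted p = 0.103, 0.116 and 0.124). FGF12 and FGF13 belong to the intracellular members of the family. FGFR3, a receptor, had 0.03 (adjusted p = 0.92).

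**Figure D4:**
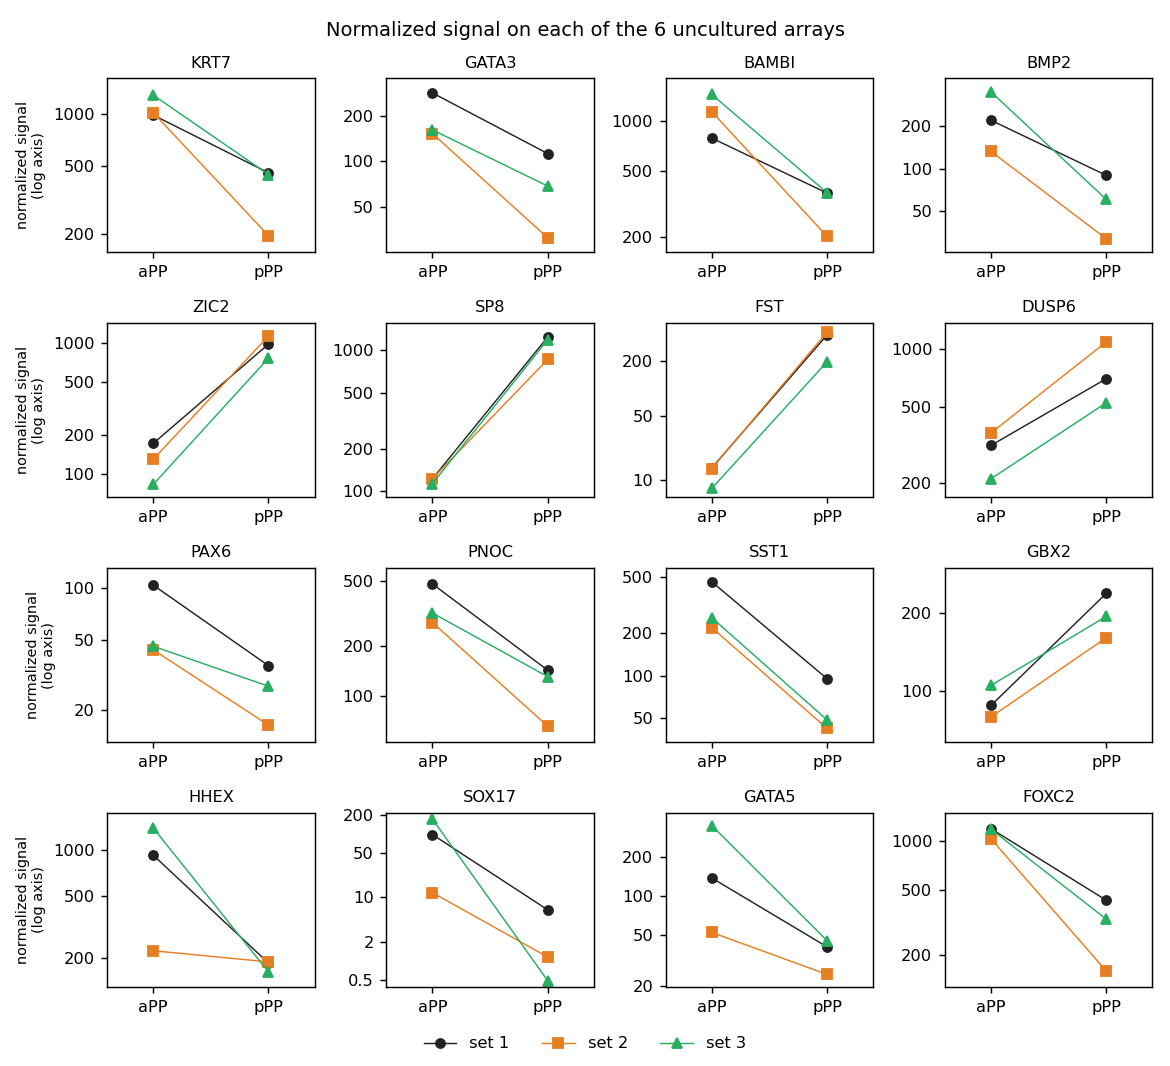
Normalized signal on each of the 6 arrays (vertical log axes, 1 panel per gene), with lines joining the aPP and pPP arrays of a set. SP8 and ZIC2 separate the regions on every array, PAX6 does so by a smaller margin, and HHEX, SOX17 and GATA5 are lowest among the aPPs in set 2.

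In the Wnt pathway, WNT11 and WNT5A, ligands known for signaling without beta-catenin, were higher in aPPs (1.27 and 1.13, adjusted p = 0.00608 and 0.0205). WNT11 had 50.1, 22.8 and 72.0 in aPPs and 8.92, 6.91 and 12.3 in pPPs. Lower in aPPs were WNT2, a ligand, with 11.1 to 13.7 against 52.4 to 74.6 (-1.50, adjusted p = 0.000922), and FZD7, a receptor (-0.98, adjusted p = 0.00123, 0.0773 without the pairing). These were the 4 called of 25 ligands and receptors. Of 18 antagonists and targets, 3 were lower. They were CCND1, the D-type cyclin, with 339 to 462 in aPPs and 936 to 1111 in pPPs (-1.42, adjusted p = 0.000265), DACT2 (-0.49, adjusted p = 0.00841), an intracellular regulator, and FRZB. LOC395991, the secreted Frizzled-related protein given above as higher in aPPs (2.19), is not in this list. The list thus does not cover every such gene, and its count does not show that all of them went down.

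Genes of retinoic acid metabolism were called in both directions. CYP26A1 and CYP26C1, neighbouring genes on chromosome 6 that encode enzymes degrading retinoic acid, were lower in aPPs. CYP26A1 had 653, 580 and 529 in aPPs and 1311, 1415 and 839 in pPPs (-0.97, adjusted p = 0.00105), and CYP26C1 had 320, 202 and 186 against 617, 378 and 364 (-0.89, adjusted p = 0.00179, 0.108 without the pairing). RDH10, the retinol dehydrogenase that starts its synthesis, was higher (1.02, adjusted p = 0.014, 0.0614 without the pairing), as was DHRS3, which turns retinal back to retinol (1.00, adjusted p = 0.0298, 0.0717 without the pairing). RARB, a retinoic acid receptor and known target, had 550.0, 531 and 642 in aPPs and 270, 153 and 280 in pPPs, without overlap (1.28, adjusted p = 0.000815). ALDH1A2, the main synthetic enzyme, had 0.76 and was not called (adjusted p = 0.0996). Of 14 genes tested, 3 were thus higher and 2 lower, with a median of 0.30. Of 29 HOX genes with a probe set only 2 passed the filter on Present calls. Of these HOXA3, a gene of hindbrain and pharyngeal arches, was higher in aPPs, with 26.0, 79.3 and 49.1 against 6.55, 0.45 and 17.6 (1.46, adjusted p = 0.0199). PTCH1, the hedgehog receptor and a target of the pathway, had 1180, 1115 and 796 in aPPs and 437, 408 and 492 in pPPs, and was the only 1 of 8 hedgehog genes called (1.16, adjusted p = 0.0011). In the Notch pathway JAG2, a ligand, was higher (1.39, adjusted p = 0.00628). LFNG (-0.65), a modifier of the receptors, and the HES family genes HES4 (-0.79) and HES6 were lower among 12 tested. HES6 was lower by at least 1.54-fold with no Present call in aPPs. It was dim in pPPs too, at 13.8 to 16.4 with 1 Present call. None of these 3 passed without the pairing (adjusted p = 0.0674, 0.0782 and 0.0564).

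The neuropeptide genes were tested because the study asks which signals act on PAX6 in aPPs. PNOC, the propeptide of nociceptin, had 480, 280 and 320 in aPPs against 143, 65.1 and 130 in pPPs. The regions did not overlap (log2 difference 1.57 ± 0.16, SE; adjusted p = 0.000372), and its other tested probe set was higher as well (1.27, adjusted p = 0.0013). SST1 had 464, 220 and 259 in aPPs and 95.6, 42.5 and 48.8 in pPPs. Its difference was almost the same in sets 1, 2 and 3 (2.105, 2.01 and 2.083), with a mean of 2.07 ± 0.14 (SE; adjusted p = 4.04e-05). By in situ hybridization the paper finds somatostatin in the mesendoderm below the aPPs, whereas nociceptin is found in the ectoderm. Which tissue gave the SST1 signal on these arrays was not tested. TAC1, the precursor of substance P, had 463, 307 and 559 in aPPs and 181, 154 and 216 in pPPs (1.17, adjusted p = 0.000759), and GAL, galanin, was dimmer (0.74, adjusted p = 0.0383, 0.111 without the pairing). The somatostatin receptor gene SSTR5 was not called, with 34.5, 28.7 and 25.8 in aPPs and 15.3, 14.5 and 23.6 in pPPs (0.44 ± 0.18, SE; adjusted p = 0.318). Every aPP value still lay above every pPP value, and the scale used understates the change of such dim genes. Signals without overlap, in either direction, were found for 2996 of the 21591 tested probe sets. Its other tested probe set, dimmer still, overlapped between the regions (0.34, adjusted p = 0.585). The paper reports the somatostatin receptor as enriched in aPPs, and its in situ hybridization places SSTR5 there in the ectoderm. The missed threshold thus does not show equal SSTR5 levels in the regions. OPRL1, the nociceptin receptor, had 42.7 to 56.1 in aPPs and 64.6 to 84.8 in pPPs (-0.44 ± 0.16, SE; adjusted p = 0.236). Its signals did not overlap either, in the opposite direction, and it was likewise not called. GRPR, the receptor of gastrin-releasing peptide, was lower in aPPs (-1.23, adjusted p = 0.00187, 0.0517 without the pairing). SSTR1, SSTR2, SSTR4, OPRK1 and OPRD1, which encode further receptors, were Present too rarely to enter the test. Of 18 such genes tested, 4 were higher and 1 was lower (median 0.19).

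Markers of tissues beside or below the ectoderm were measured on the same arrays. Of 14 mesendoderm and endoderm genes, 6 rose in aPPs and none fell. Without the pairing 1 rose, and without set 2 there were 8. HHEX, a homeobox gene of anterior endoderm, had 926, 222 and 1391 in aPPs and 185, 188 and 162 in pPPs, so that aPP set 2 was close to the pPPs (1.81, adjusted p = 0.0266, 0.0968 without the pairing). GATA5 and GATA6, zinc finger factors of endoderm and cardiac mesoderm, had 138, 52.3 and 352 and 40.8, 20.2 and 129 in aPPs, against 24.7 to 45.2 and 4.90 to 11.8 in pPPs (1.59 and 1.47, adjusted p = 0.0112 and 0.0415, and 0.139 and 0.103 without the pairing). SOX17, ISL1 and SST1 are the other 3. The median difference of the list was 0.63, 0.16 and 2.34 in sets 1, 2 and 3. Its summed signal was 3411, 1945 and 4606 in aPPs and lay between 1806 and 1888 in pPPs. FOXA2, which defines endoderm and midline, was at 210 in aPP set 3 and between 49.0 and 67.3 on the other 5 arrays (0.65, adjusted p = 0.341). CER1, a secreted antagonist of the anterior endoderm, was dim in both regions (0.48 to 9.64) and not called, and GSC, the prechordal plate factor, was Present on 1 array and not tested. Among the 6 genes called, the differences in set 2 lay between 0.22 and 0.80 for all but SST1, which had 2.01 there. The part of mesendodermal RNA in the aPP differences was not tested.

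Of 12 mesoderm genes, FOXC2 and NKX2-5 (1.04, adjusted p = 0.0436, 0.146 without the pairing), a cardiac homeobox factor, were higher. TBXT, the brachyury gene of primitive streak and notochord, was lower, with 13.1 to 23.9 in aPPs and 40.8 to 47.5 in pPPs (-0.83, adjusted p = 0.0329, 0.0605 without the pairing). The other defining markers were not called. MEOX1 had no Present call in either region, MSGN1 and TWIST1 had differences of -0.21 and -0.25, and PRRX1 had 0.50, while TBX6 was not tested. Without set 2, 1 of the 12 was higher and none was lower. The summed signal of the list was 1516, 1239 and 1548 in aPPs and 719, 370 and 556 in pPPs. FOXC2 alone gave 1196, 1037 and 1188 of it in aPPs and 435, 160 and 333 in pPPs. The sum thus mainly follows that gene and does not stand for the list as a whole. Of 8 blood and endothelium genes only KDR, a VEGF receptor, was called. It was dim (5.39 to 24.6 in aPPs, no Present call in pPPs), at least 1.52-fold higher in aPPs (adjusted p = 0.0491, 0.17 without the pairing). The summed signals of this list overlapped, at 154 to 171 in aPPs and 112 to 155 in pPPs. The part of mesodermal or vascular RNA in the differences was not tested.

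Among 62 genes of extracellular matrix and integrins, 7 were higher and 2 were lower in aPPs. FBN2, the microfibril protein fibrillin, had 104, 193 and 324 in aPPs and 38.2, 22.2 and 70.2 in pPPs (1.86, adjusted p = 0.0011), and 4 of its 5 tested probe sets were higher. COL9A1, a collagen of embryonic epithelia and cartilage, had 581 to 624 in aPPs and 153 to 322 in pPPs (1.22, adjusted p = 0.00422). TGFBI (1.06), an adhesion protein, and the basement membrane collagens COL4A1 (0.76) and COL4A2 (0.76), which adjoin each other on chromosome 1, were called with the pairing only (adjusted p = 0.0308, 0.047 and 0.0216, and 0.283, 0.159 and 0.0882 without it). COL1A2, a fibrillar collagen, and HAPLN1, a link protein of hyaluronan, were lower (-1.22 and -0.50, adjusted p = 0.0452 and 0.0249, and 0.103 and 0.0878 without the pairing). Of 39 cadherins and junction genes, CDH11 was lower, with 41.9, 52.6 and 30.4 in aPPs and 194, 374 and 86.7 in pPPs (-1.84, adjusted p = 0.00131). GJA1, the gap junction protein connexin, was also lower, with 114 to 213 against 302 to 549 (-1.40, adjusted p = 0.000537), and CDH2 was the 1 that was higher. CDH1, E-cadherin, had 0.41 and was not called (adjusted p = 0.0796). Of 41 guidance genes, UNC5B, a netrin receptor (0.70, adjusted p = 0.0025, 0.317 without the pairing), SEMA5B, a semaphorin, SLIT3, a repellent ligand, and PLXNA4, a semaphorin receptor, were higher (0.75, 0.74 and 0.72, adjusted p = 0.0126, 0.0291 and 0.0407, and 0.145, 0.0725 and 0.0614 without the pairing), and EPHA4 and DRAXIN were lower.

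None of 59 cytosolic ribosomal protein genes was called, and their differences lay between -0.22 and 0.06. None of 14 immediate early and heat shock genes was called. Of 30 cell cycle genes, CDKN1B, a cyclin-dependent kinase inhibitor, was higher (0.42, adjusted p = 0.0346, 0.256 without the pairing), and CCND1 and CCNA1 (-1.15, adjusted p = 0.0332, 0.168 without the pairing), a cyclin of germ cells in mammals, were lower. Of 23 genes of glycolysis and hypoxia, NDRG1 was higher, with 1517 to 1649 in aPPs and 636 to 902 in pPPs (0.99, adjusted p = 0.000759), as was SLC2A1, a glucose transporter (0.64, adjusted p = 0.0386, 0.336 without the pairing). EPAS1 (2.49), the hypoxia-inducible factor given above, is counted with the nonneural ectoderm genes and not here.

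Several of these genes have further tested probe sets that were not called, all with the sign of the probe set given. These were probe sets of CDH2, CDKN1B, COL1A2, COL4A2, DACT2, DHRS3, ETV5, FBN2, FGF13, FGFRL1, FZD7, GRHL3, JAG2, KRT24, NDRG1, PLXNA4, RDH10, RHOB, SEMA5B, SLIT3 and WNT5A. Their differences ran from -1.29 for COL1A2 to 1.20 for NDRG1.

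The 3 sets did not carry the differences evenly. Among the 407 probe sets higher in aPPs the difference was largest in set 2 for 237, in set 3 for 141 and in set 1 for 29. Among the pPP arrays set 2 was the lowest for 270 of these 407, and among the aPP arrays set 3 was the highest for 222. Among the 240 lower probe sets pPP set 2 was the highest pPP array for 134. Without set 1, 2 or 3 the paired counts were 280, 296 and 543 higher and 146, 170 and 378 lower. Of the 407 and 240 probe sets called with all sets, 253 and 149 were also called without set 2. Of 107 genes named by rule and called, 25 lost the call without set 1, with adjusted p up to 0.276 (HAPLN1), 25 without set 2, up to 0.241 (COL4A1), and 6 without set 3, up to 0.101 (KDR). The 6 were CDH2, ETV5, KDR, NKX2-1, PLXNA4 and TGFB2. Those lost without set 1 included EYA2, GBX2, HHEX, IRX1, KRT14, PAX6, TBXT and WNT5A, and those lost without set 2 included BMPER, DHRS3, IRX1, KRT14, LMO1, NKX6-2, PAX6, TBXT and WNT5A. Whether the sets differ in stage or in the tissue taken was not tested.

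The nearest comparison in the series is that of cultured aPPs with cultured pPPs, on 2 arrays each. The array labelled cultured pPP replicate 2 is named anterior in the annotated table, so each result is given with it, as labelled, and without it, when 1 cultured pPP array remains and is assumed to vary like the other groups. On that array ZIC2 had 715 and CYP26A1 had 706, next to 716 and 545 on cultured pPP replicate 1 and to 63.1 and 148 (ZIC2) and 75.2 and 95.5 (CYP26A1) on the cultured aPP arrays. ZIC1 had 406.7 on it, 461.5 on cultured pPP replicate 1 and 19.0 and 70.3 on the cultured aPP arrays. In the same order PAX7 had 30.8, 32.1, 4.41 and 4.09, and ZEB2 had 110, 150, 15.4 and 5.39. For these genes, all called between the uncultured regions, it thus lay with the other cultured pPP array. With all 4 arrays 50 of the 21591 probe sets were called (0.232%), and without the array in doubt 137 were called (0.635%), of which 39 were among the 50. Of the 407 probe sets higher in uncultured aPPs, 336 (82.6%) had a positive difference in cultured explants and 7 were called the same way, against 304 (74.7%) and 12 without that array. Of the 240 lower ones, 186 (77.5%) had a negative difference and 22 were called, against 161 (67.1%) and 21 without it. The median differences of these probe sets were 0.93 and -0.90 before culture and 0.31 and -0.29 after it (0.30 and -0.28 without the array in doubt). The probe sets had been selected on the uncultured difference, so the smaller medians after culture are given as a description only. Among all tested probe sets 48.8% had a positive difference after culture.

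The genes that were lower in aPPs in both comparisons included FST, ZIC1, ZIC2, ZEB2, LMX1B, PAX7, GBX2 and both CYP26 genes. Without cultured pPP replicate 2 all of these but GBX2 (-1.35, adjusted p = 0.063) passed for the cultured arrays, with adjusted p from 0.00155 to 0.0461. ZIC2 had a difference of -2.78 before culture and -2.68 after it (adjusted p = 0.000981 for the cultured arrays), and ZIC1 had -2.88 and -3.03 (adjusted p = 0.00664). CYP26A1 had -0.97 and -2.66 (adjusted p = 9.04e-05), with 85.4 in cultured aPPs and 625 in cultured pPPs. A test of the difference itself, uncultured against cultured, called 3 probe sets (0.0139%) with all arrays and 54 without cultured pPP replicate 2, the same 3 among them. SP8 was 1 of them: with 996 in cultured aPPs and 1332 in cultured pPPs its region difference was -0.42, against -3.01 before culture (difference -2.59, adjusted p = 0.000514, and -2.76, adjusted p = 0.00306, without that array). FIBIN was another, with 603 and 411 after culture, a region difference of 0.59 against 4.08 (difference 3.49, adjusted p = 0.0195, and 3.89, adjusted p = 0.023, without it). With all arrays this test called no other gene named here, which does not show that the other differences were kept. UPK1B had 2.77 before culture and -0.03 after it, EPAS1 2.49 and 0.11, and CFI 2.00 and 0.03. The limma adjusted p of these changes was 0.142, 0.107 and 0.107. SST1, by contrast, had 2.07 and 1.65. SIX3, not called before culture, had 157 in cultured aPPs and 35.2 in cultured pPPs (1.74, adjusted p = 0.0313), which did not pass without cultured pPP replicate 2 (1.59, adjusted p = 0.0819), and PAX6 had 365 and 169 (1.04, adjusted p = 0.368).

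**Figure D5:**
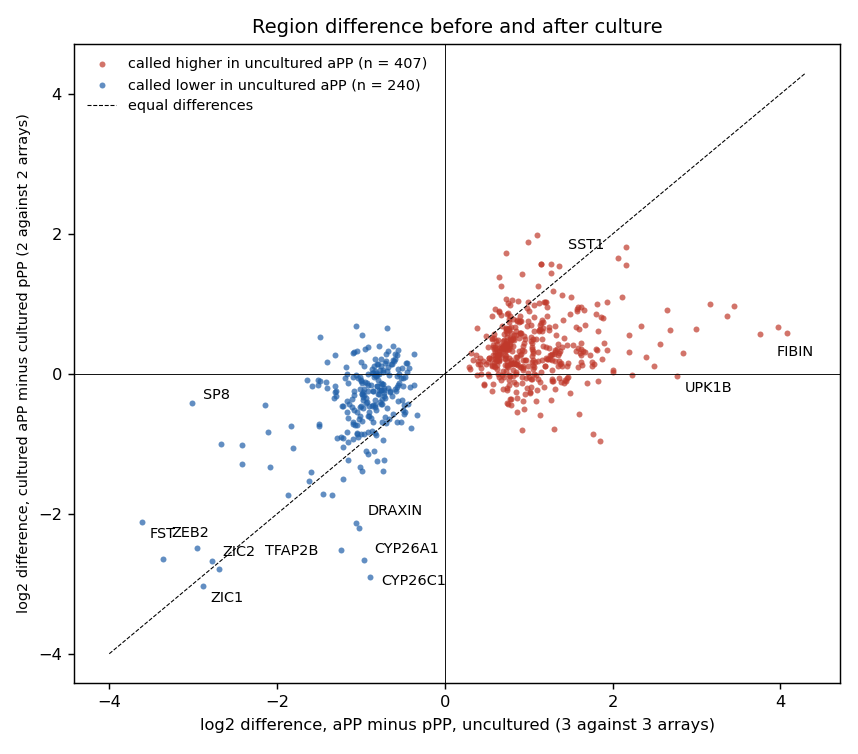
Log2 difference between cultured aPPs and cultured pPPs (vertical axis) against that between uncultured aPPs and pPPs (horizontal axis) for the 407 probe sets called higher (red) and the 240 called lower (blue) before culture; the dashed line marks equal differences, and the cultured pPP array of doubtful region is included. ZIC1 and ZIC2 lie on the line, SP8, FIBIN and UPK1B lie close to 0 on the vertical axis, and CYP26A1, CYP26C1 and TFAP2B lie below the line.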

How the data were processed

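The deposited MAS5 signals, an intensity in arbitrary linear units that the authors computed per probe set from RNA amplified and labelled with NuGEN Ovation reagents, were used. The authors also deposited MAS5 detection calls (Present, Marginal or Absent), which are another kind of value and served only as a filter. The MAS5 version, its scaling and the genome build are "not given in the sources used here". Signals were then quantile normalized over 10 arrays, 16 was added and log2 taken. Control probe sets were left out, and of the 38439 others, 21591 that were Present at least 2 times among 8 arrays entered the tests. The detection calls of 2 columns were not used, since both carry the name of cultured anterior tissue of set 2. The signals of 1 of them equal those of the sample labelled cultured pPP of set 2, whose region is therefore in doubt. It was kept under its sample label, and results on cultured arrays were also computed without it.

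Differences were fitted with limma 3.58.1 in R 4.3.3 on 6 arrays with the set number as a block and variances following the intensity (residual degrees of freedom 2, prior 8.76), with Benjamini-Hochberg adjustment across the 21591. The pairing rests on the set numbers in the titles. Departures from the group means correlated at 0.439, 0.182 and 0.226 within sets 1, 2 and 3 and at -0.277 to 0.031 between sets. Departures within a group cancel out, which pushes the values between sets toward negative ones, so these are no separate support for the pairing. The difference between uncultured and cultured arrays was fitted in 1 model of 4 group means on 10 arrays, with no block. Fits with other offsets, normalizations, filters and variances, without the block and without each set were run. The procedure was also run on simulated data, with independent noise and changes placed only in probe sets above the median signal. That run does not cover dim genes, and its outcome is not given here.

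The platform annotation gives 1 gene symbol for 27168 probe sets, several for 177 and none for 11094. Through the Entrez gene ID, 26853 probe sets matched a RefSeq gene table. For probe sets with 1 symbol, the RefSeq symbol was used where there was a match and it was not a LOC name. Otherwise the platform symbol was kept. The RefSeq table also gave neighbouring genes. Genes were named by these rules: the 15 largest increases and decreases among called probe sets with 1 symbol, the same direction in 3 sets and no overlap, up to 8 called members and the defining members of each gene list described, and each gene the paper names. Other genes named, such as GRHL3 and KRT24, were chosen after their values were seen. The comparison, the lists and these rules were chosen with earlier results of these data known. Where a region had no Present call, "at least" gives the fold of the log2 means with the other region set no lower than the lowest Present signal. The number of arrays limits the precision. Plots were made in Python 3.11.15 (matplotlib 3.10.9).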

Additional observations from a re-analysis of the deposited data

Results flagged for a closer look

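A test of the region difference before culture against that after culture called 3 probe sets. SP8 was lower in aPPs than in pPPs by more before culture (log2 difference of differences -2.59, adjusted p = 0.000514 from limma), and it passed in 16 of 17 other settings of this test, all but the one without normalization. FIBIN was higher in aPPs by more before culture (3.49, adjusted p = 0.0195), and it passed in 8 of the 17. A probe set with no gene symbol here had 75.0, 53.0 and 72.8 in aPPs and 92.3, 58.5 and 81.0 in pPPs. It had 61.6 and 91.5 in cultured aPPs and 617 and 466 in cultured pPPs, with the cultured pPPs the highest of the 4 groups (difference of differences 2.43, adjusted p = 0.0195), and it passed in 10 of the 17. The region of the array labelled cultured pPP replicate 2 (466) is in doubt, because the authors' annotated table names its signals as anterior. Without it all 3 probe sets passed (adjusted p = 0.00306, 0.023 and 0.023), and 54 were called in all. Groups of 3 arrays are too small for a check of single outlying arrays.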

How the results depend on the processing

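Results turned mainly on the pairing, the filter and the model of the variance. The counts of 407 higher and 240 lower probe sets were 174 and 103 with no replicate block, 254 and 154 in a model of all 10 arrays, 170 and 104 with no filter on Present calls, and 163 and 109 with no intensity trend in the variance. Without normalization 151 were lower. List counts without set 2 were added after seeing the data. Leaving out 1 set gave 280 to 543 higher and 146 to 378 lower. The share of higher calls did not move by over 10 percentage points with another scaling. Of 107 named genes called, 47 lost the call with no replicate block, 47 with no filter, 53 with no intensity trend and 22 without normalization. None changed direction in any setting tried, but most settings could not have reversed one. All called genes had the same sign in the 3 sets, so leaving out a set keeps it. The block, the filter and the intensity trend do not alter the difference itself. HESX1, not called, had -0.327 to 0.018 without 1 set. The 3 calls of the difference between uncultured and cultured arrays became 15 with a replicate block, 10 with an offset of 64, 1 with an offset of 1, 1 with no filter and 0 without normalization (150 at an unadjusted p under 0.05), and 1 to 54 without 1 array (54 without cultured pPP replicate 2, the array whose region is in doubt, 36 without aPP replicate 1). Without that array 137 probe sets were called between the cultured regions in place of 50, an alternative chosen after seeing the data. The cause of these changes was not tested.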

Other observations

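Some genes called in the same direction adjoin each other among the genes tested, by the order of a RefSeq gene table. Such neighbours, chosen after their values were seen, include PADI3 (log2 difference 0.81) beside PADI1 (2.40), both arginine deiminases, and ANO3 (1.56), a membrane protein of the anoctamin family, beside FIBIN (4.08). KRT14 (1.15) lies next to LOC772080 (0.67), and that gene next to KRT24 (0.43). TFF3 (1.67), a trefoil peptide of mucous epithelia, and its neighbour SLC37A1 (0.70) were both higher in aPPs. In all, 27 neighbouring pairs were called the same way, some of them sharing a gene. The number of neighbouring pairs among all genes tested is not given here, so the count cannot show whether called genes cluster. No test of this count was made.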
